A study of Bos taurus with 6 samples.

Results

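The genes of TGF-beta signaling described here are the ligands TGFB1, TGFB2 and TGFB3, the latent TGF-beta binding protein LTBP1, the receptors TGFBR1, TGFBR2 and TGFBR3, and the inhibitors SKI, SKIL and SMAD7. These 10 genes were chosen by name for their roles, with earlier results of these data known. All 10 of them were found by symbol in the deposited TPM table and by Entrez identifier among the 19163 genes of the count table. The RNA came from F7, a single line of bovine embryonic stem cells (bESCs) derived from in vitro fertilized Holstein Friesian embryos, after 15 passages. In MC-F7 (labelled 1M-F7) the feeder layer was made of mouse embryonic fibroblasts that mitomycin C had kept from dividing but left alive (MC-MEFs). In MT-F7 it was made of fibroblasts that had been fixed, and so killed, with methanol (MT-MEFs). Each group had 3 libraries, and before RNA extraction the dissociated cells were left to settle on gelatin, where feeder cells attach, so that only floating cells were taken. The authors report that a smaller share of reads mapped to the cattle genome in MC-F7 than in MT-F7. They propose that fixed feeders left less feeder material in the cultures, so removal may not have been equal. Both groups were kept in a basal medium free of growth factors to which FGF and the Wnt inhibitor IWR1 were added, and no addition of TGF-beta is stated for either group. The medium was changed daily for MC-F7 and every other day for MT-F7, and this difference cannot be told apart from that of the feeder layer. The labels do not tell whether the 3 libraries are from different cultures, so the errors and p values below measure the spread between these libraries only, which may be technical.

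TGF-beta is secreted as a latent complex in which the mature ligand stays bound to its own propeptide, and LTBP1 ties this complex to the extracellular matrix until it is released. The released ligand brings together the type II receptor TGFBR2 and the type I receptor TGFBR1, a kinase that phosphorylates SMAD2 and SMAD3, while the co-receptor TGFBR3 (betaglycan) presents the ligand and is needed most for TGFB2. SMAD7 blocks the type I receptor and SKI and SKIL (also known as SnoN) repress SMAD complexes on DNA. SMAD7 and SKIL are themselves induced by the pathway and serve as its negative feedback.

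The libraries held 21958386 to 24933430 counted reads, of which 16.3% to 28.3% fell on mitochondrial genes with overlapping groups, and 13001 genes were tested with edgeR's quasi-likelihood test, all 10 genes described here among them. Levels are given as CPM, that is, normalized counts scaled to a library of 1000000. Fold changes above 0 on the log2 scale stand for more transcript in MT-F7, and a gene was called when its Benjamini-Hochberg adjusted p over all tested genes was under 0.05. By this rule 11.9% of all tested genes were called higher and 11.3% lower in MT-F7, and the marker counts below stand beside these shares. The pluripotency genes POU5F1 (1196 CPM in MC-F7 and 522 in MT-F7) and NANOG (43.5 and 10.7 CPM) were well above the level of 3 counts taken as the floor (0.116 to 0.140 CPM) in both groups, and both fell in MT-F7 (adjusted p = 0.00119 and 1.14e-05). Of 10 pluripotency markers 7 were tested, none rose and 5 fell. The other 2, SALL4 (37.3 and 47.0 CPM) and PRDM14 (18.4 and 20.4 CPM), did not pass. Of 15 fibroblast markers 14 were tested, 4 rose and 1 fell, and their summed level was 330.1 to 393 CPM in the MC-F7 libraries and 496 to 538 CPM in the MT-F7 libraries (26.2 to 31.8 and 37.1 to 39.7 CPM without the 5 collagens). Among the defining fibroblast genes, COL3A1 (14.6 and 45.8 CPM) and PDGFRB (6.50 and 12.3 CPM) rose and TWIST2 (1.81 and 0.406 CPM) fell, whereas COL1A1 (205 and 268 CPM), THY1 (4.16 and 3.34 CPM) and PRRX1 (0.670 and 0.215 CPM) did not pass. Among 7 counted neural markers 3 rose and 1 fell (summed level 489.7 to 567 and 627 to 696 CPM). PAX6 went from 2.63 to 19.9 CPM, and the marker that fell, ELAVL3, from 4.08 to 0.799 CPM. Most of the summed neural level came from NES (312 and 412 CPM) and TUBB3 (202 and 174 CPM), which did not pass. Among 8 trophectoderm markers 5 were tested, none rose and 3 fell, which were the keratins KRT18 (859 and 193 CPM) and KRT7 (63.7 and 6.28 CPM) and GATA2 (1.11 and 0.341 CPM). The summed level of the 8 was 765 to 1122 CPM in MC-F7 and 192 to 214 CPM in MT-F7, but without the 2 keratins it was 5.22 to 6.90 and 4.78 to 6.96 CPM, which overlapped. CDX2 had 0 counts in every library, and GATA3 (0.179 and 0.117 CPM) and ELF5 (0 and 0.103 CPM) were at or near the floor. The part of feeder cells, or of other cell types, in the changes described below was not tested, and in RNA from bulk cultures fewer cells of a type and less RNA per cell cannot be told apart.

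Of the 10 genes, 7 passed the test, 4 of them higher (TGFB2, LTBP1, TGFB3 and TGFBR3) and 3 lower (TGFB1, SMAD7 and SKIL) in MT-F7. Over all 13001 tested genes 23.2% passed, 11.9% higher and 11.3% lower. The CPM values of the groups did not overlap in 8 of the 10 genes, 5 higher and 3 lower in MT-F7, while over all tested genes this held for 40.0%, 19.9% higher and 20.1% lower. The median log2 fold change of the 10 genes was 0.59, beside -0.0026 over all tested genes, and single values ran from -0.84 to 3.20. TGFB2, LTBP1 and TGFB1 were called in each of the 6 fits that left out 1 library. The number called was 3 without MC-F7 replicate 1 or 3 or MT-F7 replicate 2 or 3, 4 without MC-F7 replicate 2 and 5 without MT-F7 replicate 1. The calls of TGFB3, TGFBR3, SMAD7 and SKIL were close to the threshold and depended on single libraries, as given with each gene.

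**Figure D1:**
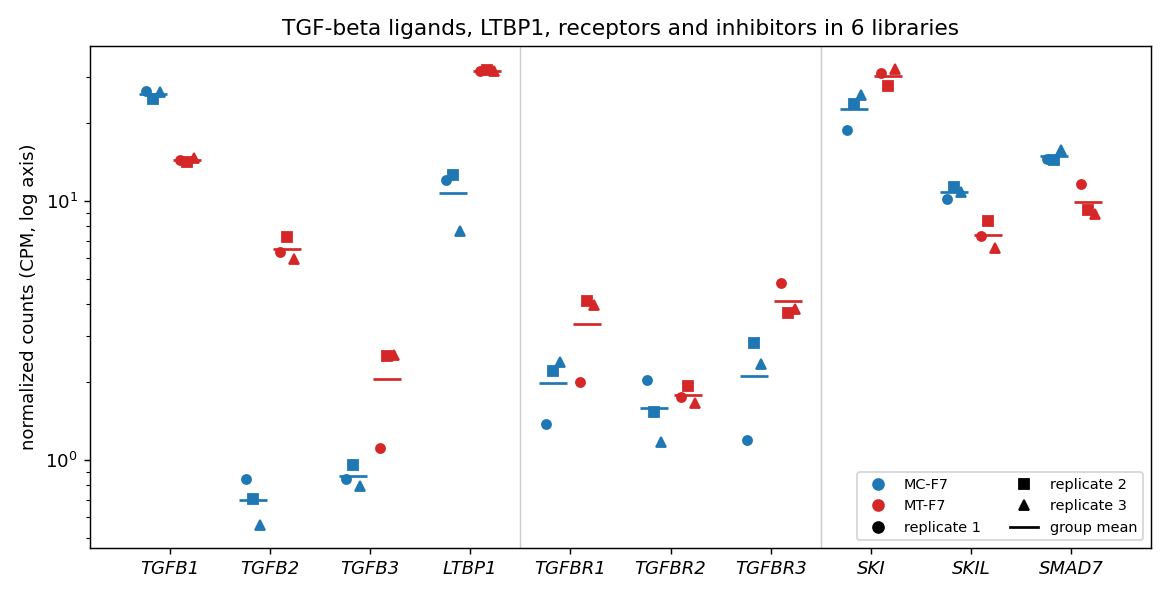
CPM (log axis) of the 10 genes in each library, blue for MC-F7 and red for MT-F7, with the replicate number as the symbol and the group mean as a line. TGFB2, TGFB3, LTBP1, TGFBR3 and SKI lie higher in every MT-F7 library than in any MC-F7 library, TGFB1, SKIL and SMAD7 lie lower, and TGFBR1 and TGFBR2 overlap.

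The 3 ligands moved in different directions. TGFB1 (Entrez gene 282089), the most widely expressed isoform, had 26.5, 24.7 and 26.3 CPM in MC-F7 and 14.4, 14.2 and 14.6 CPM in MT-F7. The libraries of each group lay close together and the groups were far apart. The level fell 1.79-fold (-0.84 ± 0.152 on the log2 scale, ± being the standard error of the fit, adjusted p = 0.00158). TGFB2 (534069), the isoform that depends most on betaglycan, had 0.840, 0.705 and 0.561 CPM in MC-F7 (19, 17 and 12 counts) and 6.37, 7.26 and 5.94 CPM in MT-F7 (160, 188 and 140 counts). Its lowest MT-F7 library was well above its highest MC-F7 library. TGFB2 rose 9.22-fold, with a 95% interval from 6.02 to 14.1, or by 3.20 ± 0.284 on the log2 scale (adjusted p = 7.05e-06), which was the largest change among the 10 genes. TGFB3 (538957), the isoform known from palate and lung development, had 0.840, 0.953 and 0.795 CPM in MC-F7 and 1.12, 2.51 and 2.55 CPM in MT-F7. Replicate 1 of MT-F7 was only slightly above the MC-F7 libraries, while replicates 2 and 3 were clearly higher. TGFB3 rose by 1.25 ± 0.405 on the log2 scale (adjusted p = 0.0416). Without MT-F7 replicate 1 its adjusted p was 0.0197, and when any of the other 5 libraries was left out it was between 0.0796 and 0.145.

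LTBP1 (510559) had 12.0, 12.6 and 7.67 CPM in MC-F7 and 31.7, 31.9 and 31.7 CPM in MT-F7. The MT-F7 libraries were nearly equal, and replicate 3 of MC-F7 was the lowest. The level rose 2.95-fold, or by 1.56 ± 0.196 on the log2 scale (adjusted p = 1.17e-04), and this value was between 1.36 and 1.69 when each library was left out in turn.

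**Figure D2:**
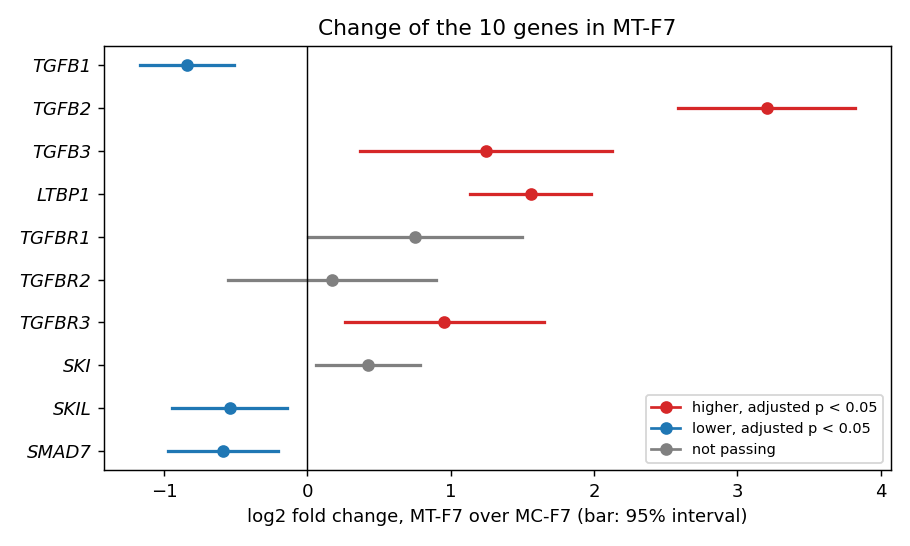
Log2 fold change of MT-F7 over MC-F7 (x axis) for each of the 10 genes, with its 95% interval as a bar, red for genes called higher, blue for genes called lower and grey for genes not passing. TGFB2 stands at 3.20 and LTBP1 at 1.56. On the higher side the intervals of TGFBR1, TGFBR3 (0.26 to 1.65) and SKI (0.059 to 0.79) begin close to 0. On the lower side those of SKIL (-0.94 to -0.14) and SMAD7 (-0.97 to -0.20) end close to 0. That of TGFBR2 spans 0.

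Levels of different genes were compared on the deposited TPM scale, which divides by gene length, after each library had been rescaled to 1000000. On this scale the summed level of the 3 ligands was 12.1 ± 0.305 TPM in MC-F7 and 11.2 ± 0.832 TPM in MT-F7 (SD, n = 3), and the groups overlapped. The make-up of that sum differed. TGFB1 made up 93.9%, 93.7% and 95.1% of it in the MC-F7 libraries and 62.5%, 56.5% and 61.1% in the MT-F7 libraries. The share of TGFB2 was 3.58%, 3.23% and 2.45% in MC-F7 and 33.4%, 34.9% and 29.9% in the MT-F7 libraries. TGFB1 was therefore the most abundant ligand in all 6 libraries, but its excess over TGFB2 went from between 26.2 and 38.9 times in MC-F7 to between 1.62 and 2.04 times in MT-F7. TGFB3 made up 2.46% to 3.10% of the ligands in MC-F7 and 4.15% to 9.09% in MT-F7. The ratio of LTBP1 to the summed ligands was 0.187, 0.210 and 0.122 in MC-F7 and 0.606, 0.559 and 0.580 in the MT-F7 libraries, again without overlap. These shares and ratios are taken within a library, so library size does not enter them, but they rest on the gene lengths that the authors used. With 3 libraries against 3, an exact permutation test of such a share has 0.1 as its smallest two-sided p, and none was run.

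**Figure D3:**
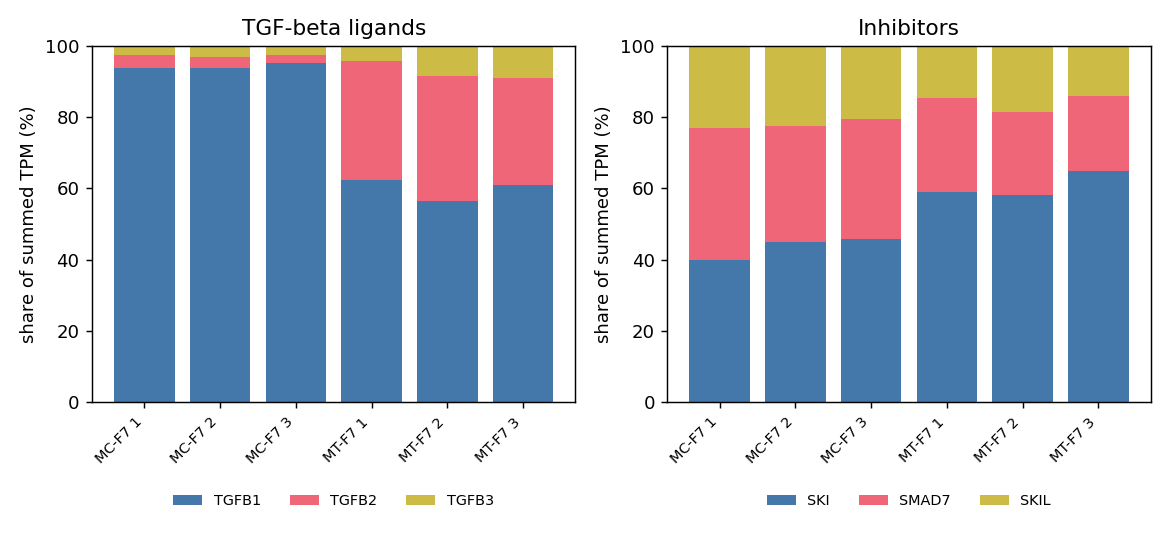
Share of each gene in the summed TPM (%) of the 3 ligands (left) and of the 3 inhibitors (right), with 1 stacked bar per library. TGFB2 takes 2.45% to 3.58% of the ligands in MC-F7 and 29.9% to 34.9% in MT-F7, and SKI takes 39.9% to 45.8% of the inhibitors in MC-F7 and 58.3% to 64.8% in MT-F7.

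The receptors had few counts, 25 to 121 per library, and wide errors, and of the 3 only TGFBR3 passed the test. TGFBR1 (282382), the type I receptor kinase, had 1.37, 2.20 and 2.39 CPM in MC-F7 and 1.99, 4.09 and 3.95 CPM in MT-F7. Replicate 1 was the lowest library of both groups, and MT-F7 replicate 1 lay within the range of MC-F7. The difference of 0.75 ± 0.345 on the log2 scale did not pass (adjusted p = 0.137). TGFBR2 (535376), which binds the ligand, had 2.03, 1.53 and 1.17 CPM in MC-F7 and 1.75, 1.93 and 1.66 CPM in MT-F7. The values were mixed between the groups. The difference was 0.17 ± 0.337 on the log2 scale (adjusted p = 0.758), and its 95% interval ran from -0.56 to 0.90, which at 25 to 50 counts per library leaves room for a rise of up to 1.87-fold. TGFBR3 (784894), the betaglycan co-receptor, had 1.19, 2.82 and 2.34 CPM in MC-F7 and 4.82, 3.71 and 3.82 CPM in MT-F7. All MT-F7 libraries were above all MC-F7 libraries, and the spread within MC-F7 was wide, with replicate 1 at the bottom. TGFBR3 rose 1.94-fold (0.96 ± 0.321 on the log2 scale, adjusted p = 0.0481). It was called without MC-F7 replicate 2 (adjusted p = 0.0442) and not when any of the other 5 libraries was left out (0.0600 to 0.172).

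The summed level of the 3 receptors was 1.60, 2.51 and 2.23 TPM in MC-F7 and 3.06, 4.26 and 3.77 TPM in MT-F7, so the groups did not overlap. TGFBR1 took the largest part of it in 5 of the 6 libraries, and in MT-F7 replicate 1 TGFBR3 did (44.1% beside 41.7% for TGFBR1). The ratio of summed ligands to summed receptors was 4.81 to 7.76 in MC-F7 and 2.82 to 3.54 in MT-F7.

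Among the inhibitors, the transcripts of the feedback genes SMAD7 and SKIL were called lower in MT-F7 and SKI was not called. The calls do not separate SKIL firmly from SKI, since neither was called in any of the 6 fits that left out 1 library. SMAD7 (535916) had 14.5, 14.4 and 15.8 CPM in MC-F7 and 11.6, 9.19 and 8.87 CPM in MT-F7. Every MT-F7 library was below every MC-F7 library, and MT-F7 replicate 1 was the nearest to them. SMAD7 changed by -0.59 ± 0.178 on the log2 scale (adjusted p = 0.0295). It was called without MT-F7 replicate 1 (adjusted p = 0.0336), and the adjusted p was between 0.0507 and 0.108 when any of the other 5 libraries was left out. SKIL (527910) had 10.2, 11.3 and 10.8 CPM in MC-F7 and 7.29, 8.34 and 6.58 CPM in MT-F7, also without overlap. SKIL sat on the threshold (-0.54 ± 0.184 on the log2 scale, or 1.46-fold lower, adjusted p = 0.04998), and in the 6 fits that left out 1 library its adjusted p was between 0.0647 and 0.170. SKI (506127), the proto-oncogene of the same family as SKIL, had 18.7, 23.8 and 25.7 CPM in MC-F7 and 31.2, 27.7 and 32.4 CPM in MT-F7. Its groups did not overlap either, but the MC-F7 spread was wide and the difference of 0.42 ± 0.168 on the log2 scale (adjusted p = 0.0890) did not pass.

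The summed level of the 3 inhibitors was 18.8 to 22.3 TPM in MC-F7 and 20.3 to 22.8 TPM in MT-F7, which overlapped. Within it, the share of SKI was 39.9%, 44.8% and 45.8% in MC-F7 and 59.1%, 58.3% and 64.8% in the MT-F7 libraries. The shares of SKIL (20.5% to 23.0% and 13.9% to 18.6%) and SMAD7 (32.6% to 37.1% and 21.3% to 26.3%) were lower in MT-F7 without overlap. The ratio of SKI to SKIL was 1.73, 1.98 and 2.24 in MC-F7 and 4.05, 3.14 and 4.65 in the MT-F7 libraries.

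In MC-F7 the order of the levels per length was TGFB1 (11.4 ± 0.217 TPM), SKI (9.18 ± 1.45), SMAD7 (7.21 ± 0.204), SKIL (4.62 ± 0.374), LTBP1 (2.10 ± 0.586), TGFBR1 (1.19 ± 0.324), and then TGFBR3, TGFB2, TGFBR2 and TGFB3 between 0.557 and 0.326 TPM. Each of the first 6 genes lay above the next in all libraries, and neighbours among the last 4 overlapped. In MT-F7 the order was SKI (13.0 ± 0.603 TPM), TGFB1 (6.71 ± 0.201), LTBP1 (6.51 ± 0.321), SMAD7 (5.08 ± 0.854), TGFB2 (3.68 ± 0.539), SKIL (3.36 ± 0.550), TGFBR1 (2.12 ± 0.748), TGFBR3 (1.14 ± 0.183), TGFB3 (0.819 ± 0.322) and TGFBR2 (0.437 ± 0.0535). TGFB1 overlapped with LTBP1, TGFB2 with SKIL, and each gene from TGFBR1 down with the next. By its mean, TGFB2 stood 8th in the MC-F7 order and 5th in the MT-F7 order.

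In the RefSeq table of the cattle genome TGFB1 overlaps HNRNPUL1 and CCDC97, and TGFB3 overlaps IFT43. How reads in such stretches were assigned is not given in the sources used here. The log2 fold changes of these neighbours were 0.29 for HNRNPUL1, -0.35 for CCDC97 and 0.066 for IFT43, none of which passed (adjusted p = 0.159, 0.110 and 0.821), beside -0.84 for TGFB1 and 1.25 for TGFB3. TGFBR1 overlaps a pseudogene, and SKI overlaps microRNA genes.

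Other genes of the pathway were taken from 5 lists by role. Of their 50 genes, 49 were in the count table and 44 were tested, of which 9 rose, 4 fell and 31 did not pass (29.5% called, beside 23.2% of all tested genes). Their median log2 fold change was 0.14. Without MC-F7 replicate 2 the number called was 8.

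Among genes that hold the ligand latent or release it, 7 of 10 were tested, 1 rose and 1 fell (28.6% called, beside 23.2% of all tested genes). LTBP4, which binds latent TGFB1, had 101 ± 16.9 CPM in the MC-F7 and 159 ± 34.9 CPM in the MT-F7 libraries (mean ± SD over 3 libraries) and rose by 0.66 on the log2 scale (edgeR adjusted p = 0.0218). LTBP3, another latent binding protein, fell from 12.7 ± 2.59 to 6.90 ± 1.51 CPM (log2 fold change -0.88, adjusted p = 0.0111). The LTBP family therefore did not move as a whole, since LTBP1 and LTBP4 were higher, LTBP3 was lower, and LTBP2 (4.34 and 2.29 CPM) did not pass. FURIN, the protease that cuts the ligand precursors, had the highest mean CPM over all 6 libraries among the genes of the list that did not pass (38.7 and 30.4 CPM, adjusted p = 0.130). ITGB6, a subunit of an integrin that activates latent TGF-beta, had 0 counts in all libraries.

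The lists for the receptor and the cytoplasm are short, and their shares called were not tested against the 23.2% of all tested genes. Of 9 receptor partners 1 was called, the matrix proteoglycan BGN (biglycan), which rose from 62.4 ± 8.31 to 98.8 ± 9.79 CPM (log2 fold change 0.66, adjusted p = 0.00859). DESeq2 called 2 of these 9, beside 22.6% of all genes it tested, and 3 had an unadjusted edgeR p under 0.05. FKBP1A, which guards the type I receptor against activation without ligand, had 421 and 278 CPM and did not pass (adjusted p = 0.0664). Of 10 genes for SMADs and their turnover 1 was called by edgeR and 1 by DESeq2, and 1 had an unadjusted edgeR p under 0.05. SMAD2, a signal transducer of the pathway, rose from 24.5 ± 2.34 to 38.4 ± 3.75 CPM (0.64 on the log2 scale, adjusted p = 0.00994). SMAD4, the common partner of receptor-activated SMADs, had 61.6 and 62.2 CPM (log2 fold change 0.012, adjusted p = 0.965). Of the 8 co-repressors tested beside SKI and SKIL none was called by edgeR or by DESeq2, 1 had an unadjusted edgeR p under 0.05, and this gene, CTBP1, had the highest CPM of them, 316 and 398 (adjusted p = 0.118).

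Genes commonly used as TGF-beta induced targets moved in both directions. Of 10 tested 9 passed, 6 higher and 3 lower in MT-F7, beside 11.9% higher and 11.3% lower over all tested genes. CCN2, the connective tissue growth factor, rose from 6.83 ± 1.79 to 19.2 ± 4.81 CPM (log2 fold change 1.49, adjusted p = 6.62e-04). The cell cycle inhibitor CDKN1A and fibronectin (FN1) rose by 1.12 and 0.98 on the log2 scale (adjusted p = 3.23e-04 and 6.01e-04). JUNB, TAGLN and TGFBI rose by 0.83, 0.82 and 0.49 (edgeR adjusted p = 0.00521, 0.0128 and 0.0389). SNAI1, a repressor of epithelial genes, fell from 9.18 ± 0.629 to 3.49 ± 0.625 CPM (log2 fold change -1.40, adjusted p = 5.49e-04). The other lower genes were PMEPA1, which like SMAD7 and SKIL restrains the pathway, with a log2 fold change of -0.91 (adjusted p = 0.0123), and KLF10, with -0.67 (adjusted p = 0.00989). KLF10, JUNB, TAGLN and TGFBI were named after their values had been seen. SNAI2 was the 1 target tested that did not pass (0.769 and 1.47 CPM, adjusted p = 0.184). Many genes of this list also answer to other signals, and FN1 is made by fibroblasts as well, whose markers had the summed levels given above.

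**Figure D4:**
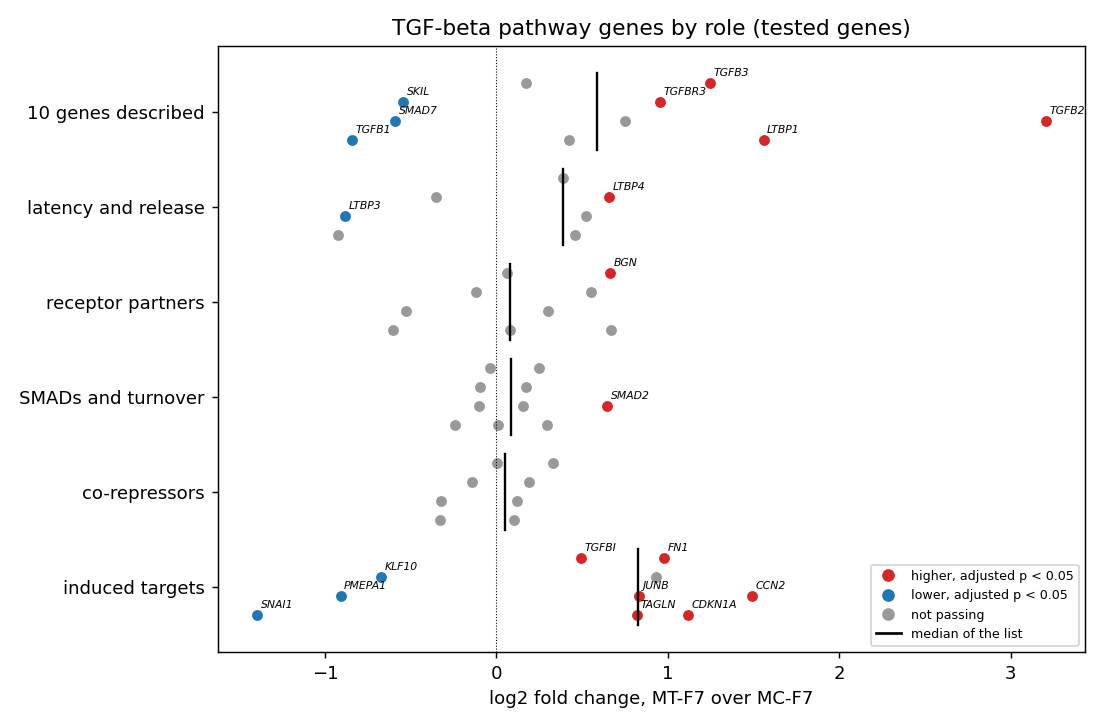
Log2 fold change of MT-F7 over MC-F7 (x axis) of each tested gene, 1 point per gene, for the 10 genes described and for the 5 lists of other pathway genes, with called genes in red (higher) or blue (lower) and a black line at the median of each list. The co-repressors lie between -0.33 and 0.33 with none called, while the induced targets run from -1.40 to 1.49 with 9 of 10 called. Over all tested genes 23.2% were called.

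The genes whose pattern over the 6 libraries was nearest to that of TGFB2 were RAX, MEST and PMEL, by the Euclidean distance between log2 CPM values centred on each gene's mean (0.194, 0.360 and 0.434). RAX, a transcription factor of the eye field, rose from 10.3 ± 2.17 to 81.0 ± 13.5 CPM. MEST, an imprinted gene, rose from 94.5 ± 20.8 to 644 ± 78.9 CPM, and PMEL, a pigment cell protein, from 4.40 ± 0.132 to 42.7 ± 3.33 CPM. This likeness rests on 2 groups of 3 libraries and describes mainly the size of the step between them.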

How the data were processed

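RNA-seq of 3 MC-F7 and 3 MT-F7 libraries was used, grouped and numbered by the sample titles. The authors aligned the reads with HISAT2 2.0.5 to an Ensembl Bos taurus genome (build not given in the sources used here), counted them per gene with featureCounts 1.5.0-p3, and deposited raw counts. They also deposited per-length values, called TPM, that do not add up to 1000000, so each library was rescaled to that sum over 21357 genes. For all matched list genes with counts, the deposited values were the same multiple of the raw count in every library. Before rescaling they therefore carry no scaling for library size. List genes were found through the RefSeq table (19074 of 19163 Entrez identifiers had a symbol). SOX2 and 4 other list genes are not analysed here.

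Genes passing filterByExpr (minimum count 10, minimum total 15) in edgeR 4.0.16 under R 4.3.3 were normalized by TMM (factors 0.971 to 1.04) and compared by the two-sided quasi-likelihood test without a block. The steps were tested on simulated data. Intervals are 95% intervals of the model. Floors (3 counts) cover counting error only. Nearest patterns used log2(CPM + 0.1). The 10 genes and the lists were chosen with earlier results of these data known. Named genes are these 10, and in each pathway list up to 5 called genes with the largest change and the gene of highest mean CPM not passing, the defining markers, and the 3 genes nearest to TGFB2. LTBP2, ITGB6, KLF10, JUNB, TAGLN, TGFBI, SALL4, PRDM14, ELAVL3, NES, KRT18, KRT7 and GATA2 were added after their values were seen. 1 gene of the induced targets is not reported here and was left out of its list. Alternatives were other normalizations and filters, DESeq2 1.42.0, limma 3.58.1 on log2(TPM + 1) and log2(TPM + 0.1) of the deposited values before rescaling, a replicate block and leaving out each library.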

Additional observations from a re-analysis of the deposited data

How the results depend on the processing

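Of the 10 genes, 7 were called, and over the 6 fits that each left out 1 library the count was between 3 and 5. It was 4 with limma on log2(TPM + 1), 3 on log2(TPM + 0.1) and 2 after a filter on deposited mean TPM (minimum 1), which kept TGFB1 and SKI alone of the 10. The limma fits had no library-size scaling, so differences in depth enter them. Their median log2 fold change over all genes was 0.011, 0.052 and 0.081, beside -0.0026 in the main fit. TGFB1, TGFB2 and LTBP1 passed under every alternative in which they were tested. SKIL did not pass with RLE factors (adjusted p = 0.0503), library size only (0.0710) or the other count filters (0.0615 and 0.0554). Over all alternatives its adjusted p ran from 0.0187 to 0.221. TGFBR3 did not pass with library size only (0.0507) or limma on log2(TPM + 0.1) (0.0666). TGFB3 and SMAD7 did not pass with limma on log2(TPM + 1) (0.0865 and 0.134) or log2(TPM + 0.1) (0.0762 and 0.133). SKI passed when replicate was added as a block (0.0206, and over all alternatives 0.0206 to 0.251) and on log2(TPM + 1) with that filter (0.0416). The log2 fold change of TGFBR2 was between -0.0050 (without MC-F7 replicate 3, reversed) and 0.39 when 1 library was left out. Of the other pathway genes 13 were called, between 8 (without MC-F7 replicate 2) and 14 when 1 library was left out, and 9 with the filter on mean TPM. Of the other cell type markers 12 were called, and 6 with that filter. Samples sharing a replicate number correlated in their deviations at 0.134, 0.0445 and 0.417, and MC-F7 replicate 2 and MT-F7 replicate 2 correlated best with replicate 1 of the other group, so the number was not taken as a pairing. With it as a block 8 of the 10 genes, 19 of the other pathway genes and 4674 of all 13001 genes passed, beside 3016 without it. When TPM was scaled by TMM library sizes instead of its sum (chosen after seeing the data), the MC-F7 level of TGFB1 was 11.7 and that of SMAD7 was 7.44 TPM. The cause of these changes was not tested. At 12 to 188 counts per library for TGFB2, TGFB3 and the receptors, counting error limits what could be detected.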
